A study of Mus musculus with 14 samples.

Results

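The 35 genes described here code for proteins of nucleolar ribosome biogenesis, and every probe annotated to their symbols was used. A probe was found for 31 of the 35 genes, 48 probes in all, among 25697 probes on the array. No probe was found for Polr1b, Wdr43, Utp18 and Utp20. The probes of Dkc1, Bysl, Wdr12 and Nop16 were not well above background on any of the 14 arrays. That left 27 genes, of 10004 tested genes, with a probe that was detected (detection p under 0.05) throughout 1 or more groups. Of these, 25 were detected on all 14 arrays. Nolc1 was detected on 10 and Rrs1 on 13. A gene with several tested probes was read from the one with the highest mean.

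Mouse cells in 6 groups were measured on Illumina MouseRef-8 v2.0 BeadChips. Y-SC (3 arrays) were skin fibroblasts of E17.5 embryos of B6CBAF1 mice, and A-SC (3 arrays) were tail tip skin fibroblasts of mice aged 1.5 years. Y-iPSC and A-iPSC (2 arrays each) were induced pluripotent stem cells made from these fibroblasts with retroviral mOCT4, mSOX2, mKLF4 and mMYC. A-iPSC-ZSCAN10 (2 arrays) also carried doxycycline-inducible ZSCAN10, a transcription factor found in pluripotent cells, and received doxycycline at 2 μg/ml. ESC (2 arrays) were mouse embryonic stem cells. The age of the donor cannot be told apart from developmental stage and body site, nor ZSCAN10 from doxycycline. The labels do not say whether the arrays of a group came from separate animals or cultures, so p-values measure the spread between arrays, which may be technical. Array medians of the deposited intensity ran from 110.656 to 147.6, and replicate arrays correlated with r from 0.9226 to 0.9858 across 14742 probes.

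The group labels were checked against marker genes. All 8 pluripotent cell markers were lower in each iPSC group than in ESC. Their summed intensity was 41324 to 45955.5 in ESC, 879.916 to 5821.93 on the 6 iPSC arrays and 236.986 to 396.278 on the 6 fibroblast arrays. In A-iPSC, Sall4 (mean log2 intensity 9.39) and Dppa5a (7.77) were the brightest of these markers. Nanog, Esrrb, Utf1 and Tdgf1 were detected on neither A-iPSC array. Dnmt3l was detected on all 6 fibroblast arrays and on none of the 6 iPSC arrays. It was lower in Y-iPSC than in Y-SC (-1.41), and lower than in A-SC in A-iPSC (-2.73) and A-iPSC-ZSCAN10 (-2.59). Keratinocyte markers summed to 10478.3 to 11970.8 in Y-iPSC, 6947.59 to 10724.6 in A-iPSC-ZSCAN10, 1573.66 to 2749.73 in ESC and 161.017 to 169.488 in A-iPSC. These sums covered 5 tested markers and left out Krt5, which was detected on no iPSC or ESC array. Krtdap had a mean log2 intensity of 11.22 for Y-iPSC but 5.05 with added ZSCAN10, detected there on 1 of 2 arrays. Krt14, Krt17, Lgals7 and Sfn were detected on both arrays of each of these groups. The brightest with added ZSCAN10 were Krt14 (12.10) and Lgals7 (11.51). Fibroblast markers summed to 2367.15 to 4048.15 in A-iPSC-ZSCAN10, 1916.22 to 2085.62 in ESC, 523.558 to 1838.47 in Y-iPSC and 585.575 to 1041.4 in A-iPSC. Of the 8 tested, only Thy1 had a higher mean in A-iPSC (8.62) than in A-iPSC-ZSCAN10 (7.91). Of 3 tested macrophage markers, Cd74 had a mean log2 intensity of 6.38 in A-iPSC-ZSCAN10 and 10.79 in A-iPSC, Lyz2 had 7.51 and 6.36, and Adgre1 was detected in neither. Their summed intensity was 747.402 to 3684.91 in Y-SC, where Lyz2 and Adgre1 were detected on all 3 arrays, and 152.679 to 271.038 in A-SC, where Adgre1 was detected on none. The part of these marker differences in the results below was not tested. In such bulk RNA, fewer cells of a type and less RNA per cell cannot be told apart.

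Ribosomes are built mainly in the nucleolus. RNA polymerase I transcribes a precursor rRNA there, box C/D and box H/ACA small nucleolar ribonucleoproteins (snoRNPs) guide its methylation and pseudouridylation, the small subunit processome cuts and folds the part that becomes 18S rRNA, and a separate set of factors assembles the large subunit. The genes of these factors are highly expressed in growing and in pluripotent cells, and many are known targets of MYC, which binds the E-box CACGTG.

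Across the 6 groups, most of the genes shared the highest group, whereas the lowest group was split. The group mean of log2 intensity was highest in ESC for 21 of the 27 tested genes (77.8%, against 25% of all 10004 tested genes). It was lowest in A-iPSC for 14 genes (51.9%, against 22.5% of all genes) and lowest in A-SC for 11 (40.7%, against 21.1%). The exceptions at the top were Nop2 and Rrs1, with the highest mean in Y-SC, Nop10 and Npm1, highest for Y-iPSC, Imp3, highest for A-iPSC, and Nolc1, highest with added ZSCAN10. After subtracting each gene's mean over groups, the median over the 27 genes was 0.80 and 0.83 on the ESC arrays and between -0.78 and -0.40 on the A-iPSC arrays. It lay between 0.25 and 0.46 in A-iPSC-ZSCAN10, between -0.01 and 0.07 in Y-iPSC, between -0.34 and 0.27 in Y-SC and between -0.60 and -0.25 in A-SC. The ranges of A-iPSC and A-SC overlapped, and so did those of Y-iPSC and A-iPSC-ZSCAN10 with Y-SC.

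**Figure D1:**
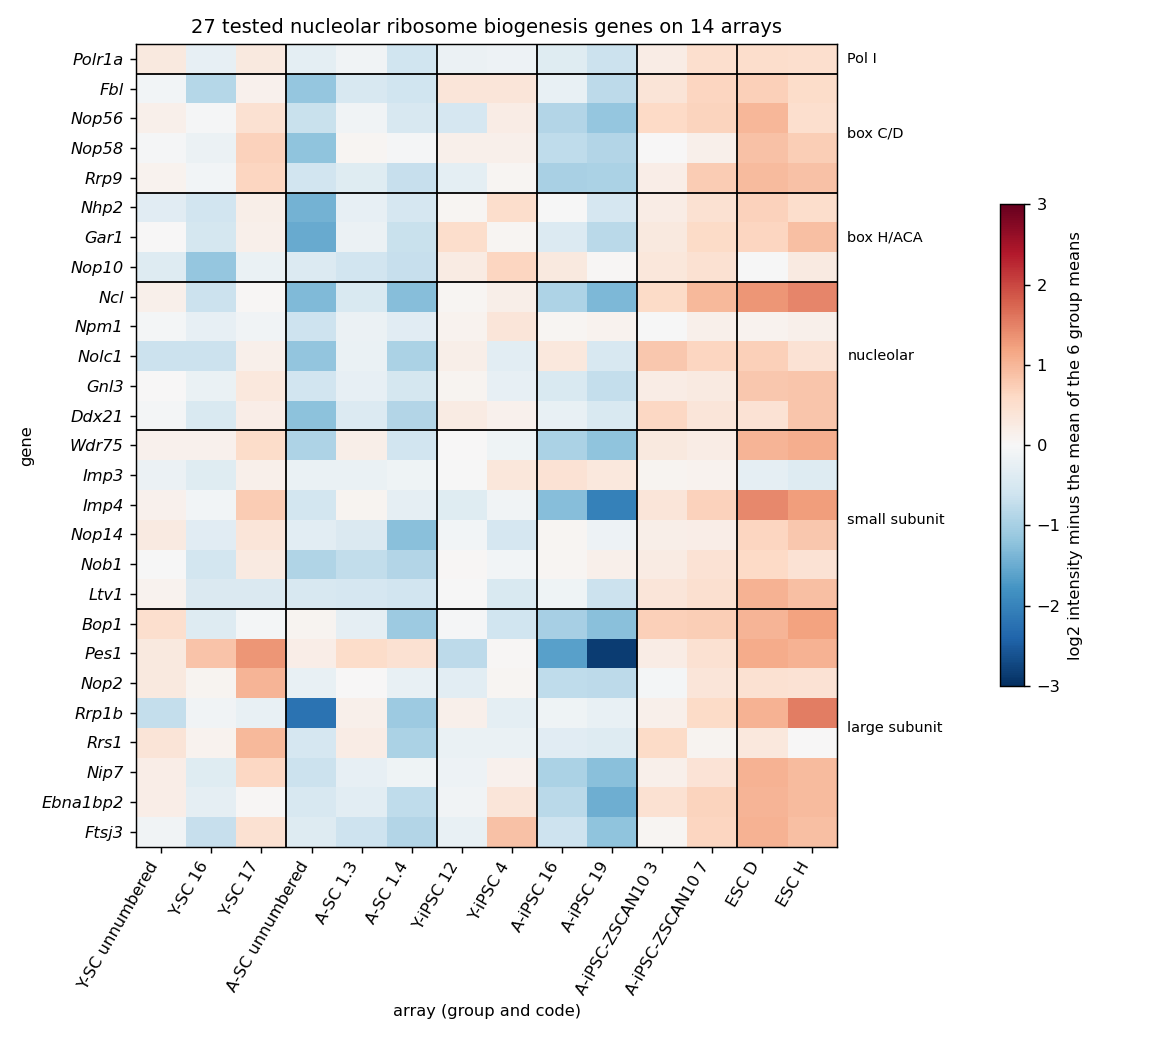
Each row is 1 of the 27 tested genes, grouped by role, and each column 1 of the 14 arrays; the colour is log2 intensity minus the mean of the gene's 6 group means. The ESC columns are above 0 for most genes and the A-iPSC columns below 0, with Pes1 and Imp4 the lowest in A-iPSC.

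Pes1, Imp4 and Ncl had the largest differences between A-iPSC and ESC and are shown by their promoters, 250 bases before to 50 after the start site in RefSeq (build GRCm38.p6), 5′ to 3′ on the gene's strand. Pes1 lies at chr11:3963725-3964024 on the plus strand, Imp4 at chr1:34439579-34439878 on the plus strand and Ncl at chr1:86359406-86359705 on the minus strand. Capitals mark the E-box CACGTG, which is its own reverse complement and was searched on both strands.
Pes1: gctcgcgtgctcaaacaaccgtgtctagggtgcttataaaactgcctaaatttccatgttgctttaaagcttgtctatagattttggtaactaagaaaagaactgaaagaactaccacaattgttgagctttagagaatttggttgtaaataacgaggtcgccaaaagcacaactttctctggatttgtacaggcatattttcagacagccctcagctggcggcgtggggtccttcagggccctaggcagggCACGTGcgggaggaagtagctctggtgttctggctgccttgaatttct
Imp4: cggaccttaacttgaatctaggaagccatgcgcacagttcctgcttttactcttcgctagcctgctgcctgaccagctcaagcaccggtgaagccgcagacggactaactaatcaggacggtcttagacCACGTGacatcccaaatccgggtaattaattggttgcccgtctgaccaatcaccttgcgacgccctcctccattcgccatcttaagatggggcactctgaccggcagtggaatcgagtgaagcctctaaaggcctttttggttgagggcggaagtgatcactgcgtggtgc
Ncl: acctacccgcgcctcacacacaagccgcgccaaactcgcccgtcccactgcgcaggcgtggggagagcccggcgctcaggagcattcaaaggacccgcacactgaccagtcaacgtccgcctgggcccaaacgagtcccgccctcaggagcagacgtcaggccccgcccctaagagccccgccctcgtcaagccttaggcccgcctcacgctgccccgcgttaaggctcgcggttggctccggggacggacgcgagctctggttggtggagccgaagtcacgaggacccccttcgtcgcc
The motif starts at position 3 from the start site in Pes1 and at position -121 in Imp4, and these letters are not in the Ncl window. RefSeq promoters were matched for 31 of the 35 genes, with none for Fbl, Bop1, Rrs1 and Npm1. The motif was present in 7 of the 31 genes (22.58%; Imp4, Ltv1, Nop2, Pes1, Utp18, Utp20 and Wdr43), and in 20.59% of their 34 promoters. Of all 32851 promoters of the same length, 7.15% held it, and 8.09% of their 27025 genes. Utp18, Utp20 and Wdr43 had no probe, so their levels were not measured. No test was made of this description, and a match is not evidence of binding.

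Pes1 and Bop1 code for subunits of the PeBoW complex, which is needed to process the rRNA of the large subunit; the probe of Wdr12, the third subunit, was not detected. Pes1 had log2 intensities of 9.30, 9.85 and 10.31 in Y-SC, 9.19, 9.54 and 9.45 in A-SC, 8.21 and 9.04 for Y-iPSC, 9.22 and 9.45 for A-iPSC-ZSCAN10, 7.37 and 6.14 for A-iPSC, and 10.10 and 10.05 in ESC. Both A-iPSC arrays were below all 12 others, and the A-iPSC arrays themselves differed by 1.23, the widest gap of any tested gene of the 27 in that group. Bop1 read 9.54, 8.65 and 8.99 in Y-SC, 9.12, 8.77 and 7.96 in A-SC, 9.01 and 8.44 for Y-iPSC, 9.75 and 9.78 for A-iPSC-ZSCAN10, 8.05 and 7.80 for A-iPSC, and 10.05 and 10.25 in ESC. Its A-iPSC range overlapped that of A-SC and lay below the other 4 groups. Ebna1bp2, known from yeast as a large subunit assembly factor, read 11.11, 10.64 and 10.93 in Y-SC, 10.43, 10.61 and 10.15 in A-SC, 10.81 and 11.27 for Y-iPSC, 11.36 and 11.58 for A-iPSC-ZSCAN10, 10.10 and 9.44 for A-iPSC, and 11.93 and 11.86 in ESC. Both A-iPSC arrays were again below all others.

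Imp4 belongs with Imp3 to a U3 snoRNP-associated complex of the small subunit processome, yet the pair ran in opposite directions between A-iPSC and ESC. Imp4 read 10.93, 10.73 and 11.58 in Y-SC, 10.26, 10.89 and 10.55 in A-SC, 10.44 and 10.71 for Y-iPSC, 11.18 and 11.50 for A-iPSC-ZSCAN10, 9.52 and 8.77 for A-iPSC, and 12.24 and 12.06 in ESC. ESC were above every other array and A-iPSC below. Imp3 read 11.90, 11.72 and 12.22 in Y-SC, 11.87, 11.88 and 11.95 in A-SC, 12.05 and 12.41 for Y-iPSC, 12.16 and 12.18 for A-iPSC-ZSCAN10, 12.50 and 12.40 for A-iPSC, and 11.80 and 11.69 in ESC. Here ESC had the lowest mean and A-iPSC the highest. Nob1, the endonuclease that makes the 3′ end of 18S rRNA, and Ltv1, a 40S maturation factor, act late. Nob1 read 10.30, 9.74 and 10.57 in Y-SC, 9.39, 9.56 and 9.43 in A-SC, 10.33 and 10.21 for Y-iPSC, 10.55 and 10.73 for A-iPSC-ZSCAN10, 10.36 and 10.46 for A-iPSC, and 10.89 and 10.74 in ESC. A-SC lay below all other arrays. Ltv1 read 9.20, 8.67 and 8.65 in Y-SC, 8.63, 8.58 and 8.51 in A-SC, 9.09 and 8.63 for Y-iPSC, 9.46 and 9.59 for A-iPSC-ZSCAN10, 8.96 and 8.46 for A-iPSC, and 10.14 and 10.00 in ESC. ESC and then A-iPSC-ZSCAN10 stood above the other 4 groups. A-SC lay below the Y-SC and Y-iPSC arrays, by less than 0.05 at the nearest, and overlapped A-iPSC.

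Ncl codes for nucleolin, an abundant nucleolar protein that binds precursor rRNA. It read 10.41, 9.62 and 10.30 in Y-SC, 8.93, 9.80 and 8.97 in A-SC, 10.32 and 10.42 for Y-iPSC, 10.84 and 11.24 for A-iPSC-ZSCAN10, 9.32 and 8.91 for A-iPSC, and 11.57 and 11.73 in ESC. A-iPSC overlapped A-SC, and ESC and A-iPSC-ZSCAN10 were above all other groups without overlapping each other. Npm1, nucleophosmin, a nucleolar chaperone, stayed within a narrow band, 13.62, 13.44 and 13.59 in Y-SC, 13.08, 13.52 and 13.35 in A-SC, 13.80 and 14.05 for Y-iPSC, 13.67 and 13.86 for A-iPSC-ZSCAN10, 13.76 and 13.80 for A-iPSC, and 13.80 and 13.86 in ESC. It passed the test in none of the 12 comparisons. Npm1 was bright, and some arrays of different groups had the same normalized value. This was 13.80 on 1 array each of Y-iPSC, A-iPSC and ESC, and 13.86 on 1 array each of A-iPSC-ZSCAN10 and ESC. Whether its brightness narrowed its differences was not tested. Gnl3, nucleostemin, a nucleolar GTPase of stem and tumour cells, read 12.58, 12.37 and 12.89 in Y-SC, 12, 12.32 and 12.04 in A-SC, 12.65 and 12.32 for Y-iPSC, 12.80 and 12.85 for A-iPSC-ZSCAN10, 12.11 and 11.84 for A-iPSC, and 13.37 and 13.41 in ESC. Only the ESC arrays lay apart from all others. Ddx21, an RNA helicase of Pol I transcription and rRNA processing, read 11.11, 10.71 and 11.36 in Y-SC, 9.95, 10.77 and 10.29 in A-SC, 11.41 and 11.30 for Y-iPSC, 11.80 and 11.53 for A-iPSC-ZSCAN10, 10.95 and 10.71 for A-iPSC, and 11.60 and 12 in ESC. Nolc1, a chaperone of snoRNPs, was dim, at 4.96, 4.96 and 5.76 in Y-SC, 4.43, 5.43 and 4.67 in A-SC, 5.79 and 5.31 for Y-iPSC, 6.43 and 6.26 for A-iPSC-ZSCAN10, 5.93 and 5.14 for A-iPSC, and 6.33 and 6.05 in ESC. It was detected on 1 of 3 A-SC arrays and 1 of 2 A-iPSC arrays.

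Polr1a, the largest subunit of RNA polymerase I, read 11.10, 10.55 and 11.09 in Y-SC, 10.50, 10.68 and 10.20 in A-SC, 10.62 and 10.64 for Y-iPSC, 11.02 and 11.30 for A-iPSC-ZSCAN10, 10.44 and 10.16 for A-iPSC, and 11.32 and 11.31 in ESC. ESC were above all other arrays, and A-iPSC overlapped A-SC. The box C/D genes had their highest means in ESC. Fbl codes for fibrillarin, the methyltransferase of these snoRNPs, and read 11.91, 11.13 and 12.11 in Y-SC, 10.83, 11.50 and 11.39 in A-SC, 12.35 and 12.34 for Y-iPSC, 12.38 and 12.64 for A-iPSC-ZSCAN10, 11.76 and 11.21 for A-iPSC, and 12.71 and 12.54 in ESC. Nop56, a core scaffold protein of the same particles, read 10.51, 10.32 and 10.80 in Y-SC, 9.68, 10.25 and 9.86 in A-SC, 9.85 and 10.57 for Y-iPSC, 10.95 and 11.01 for A-iPSC-ZSCAN10, 9.48 and 9.20 for A-iPSC, and 11.36 and 10.86 in ESC. Its A-iPSC arrays were the lowest of the 14, whereas for Fbl they overlapped both fibroblast groups. Nop58, the partner scaffold, read 11.71, 11.58 and 12.45 in Y-SC, 10.54, 11.81 and 11.71 in A-SC, 11.90 and 11.90 for Y-iPSC, 11.77 and 11.91 for A-iPSC-ZSCAN10, 10.98 and 10.88 for A-iPSC, and 12.64 and 12.49 in ESC. Of the box H/ACA genes, which also serve telomerase, Nop10 read 11.76, 11.00 and 11.96 in Y-SC, 11.74, 11.57 and 11.46 in A-SC, 12.40 and 12.80 for Y-iPSC, 12.49 and 12.61 for A-iPSC-ZSCAN10, 12.45 and 12.20 for A-iPSC, and 12.14 and 12.43 in ESC. For the Nop10 probe with the highest mean, all 8 pluripotent-labelled arrays were above the 6 fibroblast arrays. On its other tested probe, Y-iPSC overlapped Y-SC. Rrp1b, a nucleolar protein of the large subunit pathway, read 8.60, 9.21 and 9.11 in Y-SC, 7.10, 9.48 and 8.24 in A-SC, 9.47 and 9.03 for Y-iPSC, 9.48 and 9.89 for A-iPSC-ZSCAN10, 9.19 and 9.10 for A-iPSC, and 10.36 and 10.86 in ESC. The spread of 2.38 within A-SC was the widest of any of the 27 genes in any group.

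**Figure D2:**
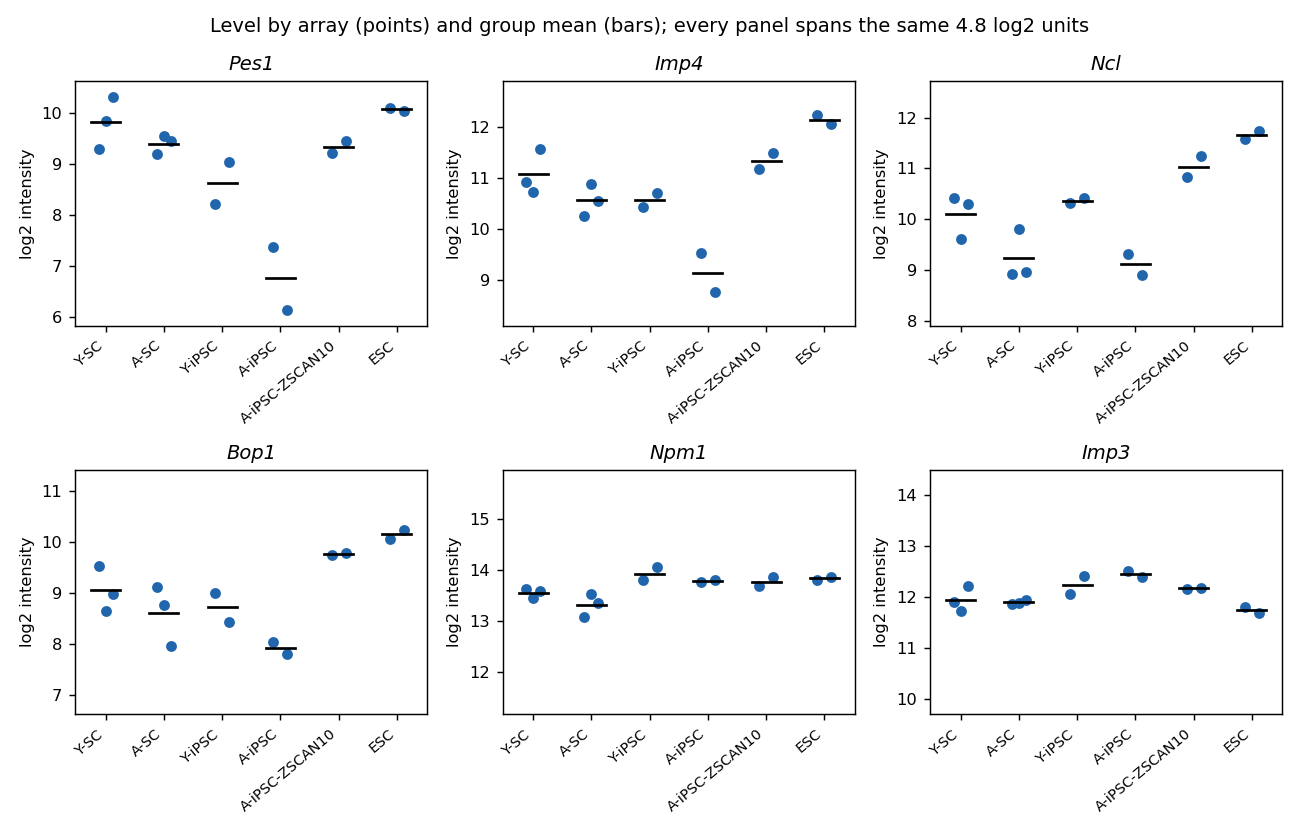
Points are log2 intensities of single arrays by group (3 in each fibroblast group, 2 in each other group) and bars are group means, for Pes1, Imp4, Ncl, Bop1, Npm1 and Imp3. Pes1 falls to 6.14 and 7.37 in A-iPSC, Npm1 stays between 13.08 and 14.05, and Imp3 is lowest in ESC.

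Between iPSC from old and from embryonic fibroblasts, 5 of the 27 genes were lower in A-iPSC than in Y-iPSC and 0 were higher. Over all genes, 4.38% were lower and 6.12% higher. Genes were called at a Benjamini-Hochberg adjusted p under 0.05 in limma, here and in every comparison. Pes1 fell by 1.87 ± 0.43 (SE) on the log2 scale, a 3.65-fold difference (limma adjusted p = 0.0177). Imp4 fell by 1.43 ± 0.34 (limma adjusted p = 0.0229), and Ebna1bp2 fell by 1.27 ± 0.29 (limma adjusted p = 0.0173). Ncl (-1.26) and Nip7 (-1.09), a large subunit factor, were the other two called. The median of the 27 differences was -0.65, against -0.01 for all genes, and 24 of the 27 were negative. The positive values were 0.25 for Nop14, 0.22 for Imp3 and 0.14 for Nob1, none of them called. None of the 5 calls held in every fit that left out 1 array. No gene was called without Y-iPSC 4 (0) or without A-iPSC 19 (0), and 3 were without A-iPSC 16. With only the 4 arrays of these groups in the fit 0 were called, and with median scaling 2.

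With added ZSCAN10, 11 of the 27 genes were higher in A-iPSC-ZSCAN10 compared with A-iPSC and 0 were lower, where 7.78% of all genes were higher and 8.38% lower. Pes1 was higher by 2.58 ± 0.43, a 5.98-fold difference (limma adjusted p = 0.00257). Imp4 was higher by 2.19 ± 0.34, or 4.58-fold (limma adjusted p = 0.00188), and Ncl by 1.92 ± 0.35, or 3.79-fold (limma adjusted p = 0.00426). Bop1 (1.85), Ebna1bp2 (1.70), Nop56 (1.64), Rrp9 (1.44), Nip7 (1.38), Wdr75 (1.34), Polr1a (0.86) and Gnl3 (0.85) were also called. They span every role except the box H/ACA snoRNPs, whose 3 tested genes had a median of 0.60 with none called. The median over the 27 genes was 0.91, against 0.03 for all genes. Without A-iPSC 19 there were 3 calls and without A-iPSC-ZSCAN10 7 there were 4. Imp4, Pes1 and Ebna1bp2 were called in each of the 4 fits that left out 1 array. With only the 4 arrays of both groups in the fit, 17 genes were called.

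The comparisons of A-iPSC with Y-iPSC and with A-iPSC-ZSCAN10 share the A-iPSC arrays, so their opposite signs are not independent. Directly compared, A-iPSC-ZSCAN10 and Y-iPSC differed in 0 of the 27 genes by limma (4 at an unadjusted p under 0.05, beside 13.8% of all genes), with 0.67% of all genes higher and 0.78% lower. The median difference was 0.37. The smallest adjusted p was that of Bop1, which was 1.05 ± 0.39 higher in A-iPSC-ZSCAN10 (limma adjusted p = 0.245).

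**Figure D3:**
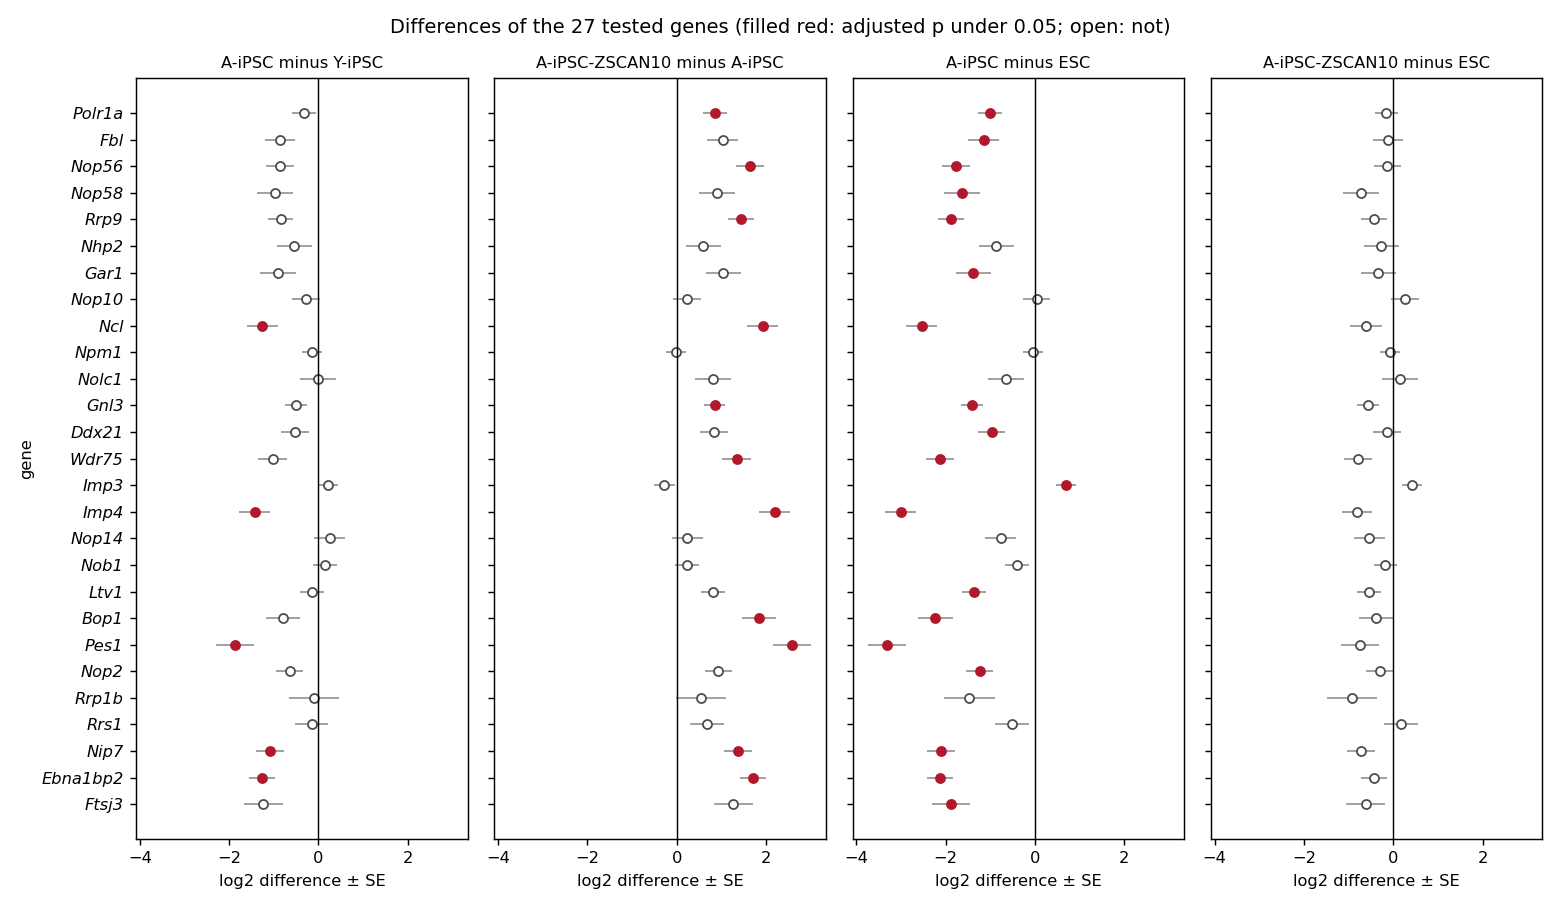
Log2 differences of the 27 tested genes with their standard errors in 4 comparisons that share arrays; filled red points passed an adjusted p under 0.05 in limma and open points did not. A-iPSC minus ESC runs down to -3.32 for Pes1, and no point is filled for A-iPSC-ZSCAN10 minus ESC.

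Against ESC, A-iPSC had lower levels of 18 of the 27 genes and a higher level of 1, beside 18.1% of all genes lower and 17.3% higher. Pes1 fell by 3.32 ± 0.43, a 9.98-fold difference (limma adjusted p = 0.00019). Imp4 fell by 3.00 ± 0.34, or 8.02-fold (limma adjusted p = 8.53e-05), and Ncl fell by 2.53 ± 0.35, or 5.79-fold (limma adjusted p = 0.0003). All 4 box C/D genes were lower, with Rrp9, the U3-specific protein, at -1.88, Nop56 at -1.77, Nop58 at -1.64 and Fbl at -1.14. In the large subunit group, 6 of 8 tested genes were lower, namely Pes1, Bop1 (-2.23), Ebna1bp2 (-2.13), Nip7 (-2.10) and the rRNA methyltransferase genes Ftsj3 (-1.88) and Nop2 (-1.23). Also lower were Gnl3 (-1.41), Gar1 of the box H/ACA snoRNPs (-1.38) and Ddx21 (-0.97). In the small subunit group 3 of 6 were lower, namely Imp4, Wdr75 (-2.13) and Ltv1 (-1.36). Polr1a was also lower, at -1.01 ± 0.26 (limma adjusted p = 0.0113). Imp3 was the gene that was higher, by 0.70 ± 0.23 (limma adjusted p = 0.0325), and it was called in 0 of the 4 fits that left out 1 array and lost its call with median scaling. Not called were Nhp2, Nop10, Npm1, Nolc1, Nop14, Nob1, Rrp1b and Rrs1, with differences from -1.47 for Rrp1b to 0.04 for Nop10. Without A-iPSC 19, 11 of the 27 were called, and 11 genes were called in each fit that left out 1 array.

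The other iPSC groups had fewer genes called against ESC. Y-iPSC had 8 of the 27 genes lower than ESC and 0 higher, beside 7.53% of all genes lower and 7.49% higher. Imp4 fell by 1.58 ± 0.34 (limma adjusted p = 0.0107), Pes1 fell by 1.45 ± 0.43 (limma adjusted p = 0.0415) and Bop1 fell by 1.43 ± 0.39 (limma adjusted p = 0.0296). Ncl (-1.28), Ltv1 (-1.21), Wdr75 (-1.10), Rrp9 (-1.03) and Gnl3 (-0.90) were the others. These calls rested on few arrays, with 0 without ESC D, 0 without ESC H, 3 without Y-iPSC 4 and 4 without Y-iPSC 12, and there were 3 with median scaling, 5 without the detection filter and 2 with only the 4 arrays of both groups. Between A-iPSC-ZSCAN10 and ESC, 0 of the 27 genes were called by limma (4 at an unadjusted p under 0.05, beside 27.8% of all genes), with 6.47% of all genes lower and 6.76% higher. The median was -0.38, and the smallest adjusted p was that of Wdr75, at -0.79 ± 0.32 (limma adjusted p = 0.142). With only the 4 arrays of these groups in the fit, 6 genes were called, and without the 4 fibroblast arrays deposited with 1 decimal, 2. A p above the threshold does not show that A-iPSC-ZSCAN10 and ESC were equal in these genes. The 3 comparisons with ESC share the ESC arrays.

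ESC were above the mean of both fibroblast groups in 22 of the 27 genes and below in 0, beside 22.6% of all genes higher and 20.8% lower. Rrp1b was higher by 1.99 ± 0.46 (limma adjusted p = 0.00515), Ncl by 1.98 ± 0.29 (limma adjusted p = 0.000297) and Ltv1 by 1.36 ± 0.22 (limma adjusted p = 0.000604). The 5 genes not called were Pes1 (0.47), Npm1 (0.40), Nop2 (0.30), Rrs1 (0.13) and Imp3 (-0.18). Without ESC H there were 10 calls and without ESC D 12, and with median scaling 13. Rrp9, Ncl, Gnl3, Imp4, Nob1, Ltv1 and Ebna1bp2 were called in every fit that left out 1 array.

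Tail tip and embryonic fibroblasts differed in 0 of the 27 genes by limma (10 at an unadjusted p under 0.05, beside 10.5% of all genes), with 0.21% of all genes higher and 0.27% lower in A-SC. The median was -0.51, against -0.04 for all genes, and 26 of the 27 values were negative. The smallest adjusted p was that of Nob1, at -0.74 ± 0.22 (limma adjusted p = 0.232), although its A-SC and Y-SC arrays did not overlap.

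Few of the genes were called between fibroblasts and iPSC without ZSCAN10, which does not show that the others were unchanged. An unadjusted p under 0.05 in limma was found for 2 of the 27 in Y-iPSC minus Y-SC, beside 37.5% of all genes. For A-iPSC minus A-SC it was found for 9, beside 43.9%. From Y-SC to Y-iPSC, 1 of the 27 was higher and 1 lower, beside 12.1% of all genes higher and 12.5% lower. Nop10 was higher by 1.03 ± 0.28 (limma adjusted p = 0.0212). Its other tested probe, a dim one, gave -0.004 ± 0.30, with a mean of 5.64 in both groups. Pes1 fell by 1.20 ± 0.39 (limma adjusted p = 0.0441). Neither call was made with the export format as a block (0), without the 4 arrays of the 1-decimal format (0), with only the 5 arrays of these groups (0) or without Y-SC 16 (0), and 1 was without Y-SC 17, Y-iPSC 12 or Y-iPSC 4. The median was 0.02 and turned to -0.44 with median scaling. From A-SC to A-iPSC, 1 gene was higher and 2 lower, beside 17.9% of all genes higher and 15.5% lower. Nob1 was higher by 0.95 ± 0.24 (limma adjusted p = 0.0102), Pes1 fell by 2.64 ± 0.39 (limma adjusted p = 0.000385) and Imp4 fell by 1.42 ± 0.31 (limma adjusted p = 0.00485). Pes1 was called in every fit that left out 1 array. There was 1 call without A-iPSC 19, 6 without the unnumbered A-SC array and 5 with the export format as a block. From A-SC to A-iPSC-ZSCAN10, 13 of the 27 were higher and 0 lower, beside 12% of all genes higher and 10% lower. Ncl was higher by 1.80 ± 0.32 (limma adjusted p = 0.00279), Nolc1 by 1.50 ± 0.36 (limma adjusted p = 0.0139) and Ddx21 by 1.32 ± 0.28 (limma adjusted p = 0.00712), while Pes1 did not differ beyond its error, at -0.06 ± 0.39 (limma adjusted p = 0.934). Only Ncl was called in each leave-out fit, and there were 5 calls without A-SC 1.4, 2 when A-iPSC-ZSCAN10 7 was left out and 3 when A-iPSC-ZSCAN10 3 was. The difference between the change from A-SC to A-iPSC and that from Y-SC to Y-iPSC was called for 0 of the 27 genes by limma (3 at an unadjusted p under 0.05, beside 18.8% of all genes), with 2.44% of all genes higher and 1.55% lower. The smallest adjusted p was that of Pes1, at -1.44 ± 0.55 (limma adjusted p = 0.18).

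Of the tested genes, 11 had more than 1 tested probe, giving 15 further probes. These took the sign of the gene's main probe in 14 of 15 cases for A-iPSC minus Y-iPSC, in 15 of 15 for A-iPSC-ZSCAN10 minus A-iPSC and in 14 of 15 for A-iPSC minus ESC, but in 9 of 15 for the difference of reprogramming changes, and no called pair disagreed in direction in any comparison. The second probe of Imp4 gave -1.28, 2.19 and -3.10 in these 3 comparisons, all called, and that of Ncl gave -1.03, 1.79 and -2.39, of which the first was not called. Calls differed between probes. In A-iPSC minus ESC, 3 other probes were called where the main probe was not, among them that of Nhp2 (-1.36). The reverse held for 1 probe. With ZSCAN10, Polr1a and Gnl3 were called, but each had another probe that was not (0.76 and 0.56), while Nop2 was not called and 1 of its other probes was (1.29). From A-SC to A-iPSC, 4 other probes were called where the main probe was not, namely 1 each of Nop2 (-0.89) and Ebna1bp2 (-0.82) and both of Rrp1b. The other probes of Rrp1b were higher by 1.63 and 1.84, against 0.87 for its main probe.

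Other genes of the pathway, from lists that exclude the 35, were set beside them. Over all genes, 4.38% were lower in A-iPSC than in Y-iPSC, 7.78% higher with ZSCAN10 and 18.1% lower in A-iPSC than in ESC. Of 36 tested small subunit processome genes, 5 were lower and 0 higher in A-iPSC relative to Y-iPSC, 10 were higher and 0 lower with ZSCAN10, and 24 were lower and 0 higher in A-iPSC than in ESC, with medians of -0.45, 0.70 and -1.18. Heatr1, a component of the processome needed for Pol I transcription, had differences of -1.69, 2.19 and -3.11 in these comparisons. Of 38 tested large subunit assembly genes, 5 were lower, 10 higher and 22 lower, with medians of -0.27, 0.54 and -1.22. Noc3l, a large subunit factor first known in yeast, was 1.81 higher with ZSCAN10 and 2.68 below ESC in A-iPSC (-2.68). Among 7 other Pol I genes, Polr1d (0.83) was the 1 that was higher and 0 were lower in A-iPSC relative to Y-iPSC, and Ubtf, the Pol I upstream binding factor, was 1.56 higher with ZSCAN10. In A-iPSC minus ESC, 3 of these 7 were lower and Polr1d was higher (1.01). The 9 tested snoRNP assembly genes had 0 called by limma in A-iPSC minus Y-iPSC (4 at an unadjusted p under 0.05, beside 26.3% of all genes). They had 0 called in A-iPSC-ZSCAN10 minus A-iPSC (5 unadjusted, beside 30.5% of all genes), and 6 were lower in A-iPSC than in ESC. Of 9 RNA exosome genes, which trim rRNA precursors, 0 were called in A-iPSC minus Y-iPSC (3 at an unadjusted p under 0.05 in limma, beside 26.3% of all genes). With ZSCAN10, 3 of them were higher, including Exosc1 (1.28) and Exosc4 (1.11), and 6 were lower in A-iPSC than in ESC.

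With quantile normalization, the genes of the ribosomal proteins themselves had medians near 0 between the pluripotent-labelled groups. Of 55 tested genes of cytosolic ribosomal proteins, Rpl21 (1.19) was the 1 that was higher and 0 were lower in A-iPSC relative to Y-iPSC. Over all genes, 6.12% were higher and 4.38% lower. With ZSCAN10, 0 were called (3 at an unadjusted p under 0.05 in limma, beside 30.5% of all genes). In A-iPSC, 4 (7.27%) were higher and 1 (1.82%) lower than in ESC, beside 17.3% of all genes higher and 18.1% lower. Their medians were 0.06, -0.09 and 0.17, and kept their signs with median scaling (0.24, -0.21 and 0.51). In the comparisons with fibroblasts the sign depended on the scaling. From A-SC to A-iPSC the median was 0.28, and -0.25 with median scaling. Without that scaling, 13 (23.6%) were higher and 0 lower, beside 17.9% of all genes higher and 15.5% lower. For ESC minus fibroblasts the median was 0.05, and -0.79 with median scaling. No test was made of the difference between these genes and the 27. The 55 genes were bright, with a normalized intensity summing to 396774 to 513131 per array. The largest deposited intensity of any single probe was 10891.58 to 34281.1, depending on the array. Whether this brightness narrowed their differences was not tested.

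Proliferation genes had medians of the same sign as the 27 genes in these 3 comparisons. Of 18 tested, 1 was lower in A-iPSC than in Y-iPSC (Mcm3, -2.13), which at 5.56% is near the 4.38% of all genes. With ZSCAN10, 4 (22.2%) were higher, beside 7.78% of all genes, and 8 (44.4%) were lower in A-iPSC than in ESC, beside 18.1%, with medians of -1.27, 1.36 and -2.04 and no call in the opposite direction. Their summed intensity was 9067.51 to 15770.5 in A-iPSC, 26961 to 28763.8 in Y-iPSC, 31272.5 to 31901.3 in A-iPSC-ZSCAN10 and 47366 to 49366.3 in ESC. On the fibroblast arrays it ran from 6810.41 to 25429.5. The part of proliferation in the differences of the 27 genes was not tested. Among the Y-SC arrays, the median of the proliferation genes and that of the 27 genes were 0.24 and 0.10 on the unnumbered array, -1.06 and -0.34 on Y-SC 16, and -2.21 and 0.27 on Y-SC 17. Among the A-SC arrays they were -1.82 and -0.58 on the unnumbered array, 0.21 and -0.25 on A-SC 1.3, and -0.27 and -0.60 on A-SC 1.4.

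**Figure D4:**
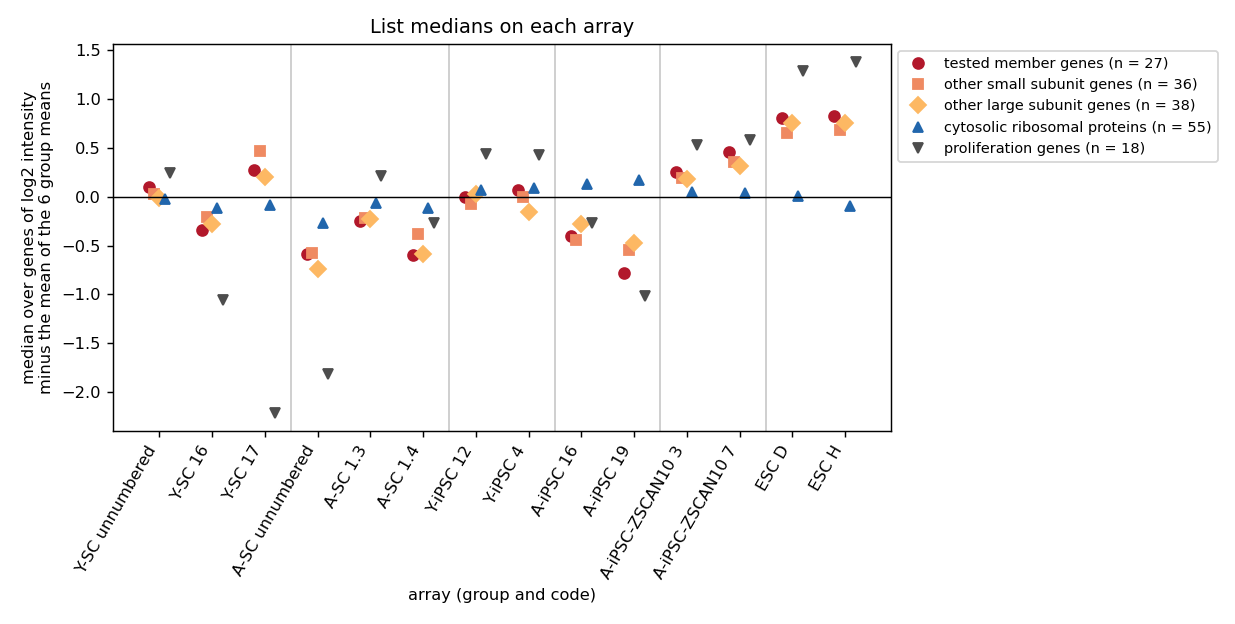
For each of the 14 arrays, the median over the genes of 5 lists of log2 intensity minus the mean of the 6 group means. The 27 genes, the other small and large subunit genes and the proliferation genes are highest in ESC and below 0 in A-iPSC, while cytosolic ribosomal proteins stay between -0.27 and 0.18 on every array.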

How the data were processed

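Illumina BeadChips measured total RNA of 14 samples. The table of raw values, per the file headers, holds 1 bead intensity and 1 detection p-value per probe and array; no source used here says whether background was already subtracted. A second deposited table has the authors' processed intensity, for which the submitters' processing notes name lumi with no version, and served as an alternative.

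The raw intensities were processed with neqc of limma 3.58.1 in R 4.3.3, which estimates negative controls from detection p-values, corrects background, applies an offset (16) and quantile normalization, and returns log2 values. The tests covered 14742 probes of 10004 genes, namely those with detection p under 0.05 throughout 1 or more groups. Symbols are those of the platform annotation, updated through gene IDs for 23962 of 23978 probes with a symbol; 1719 had none. A linear model with 1 mean per group over all 14 arrays (8 residual and 3.633 prior degrees of freedom) gave 12 contrasts; p-values were adjusted by Benjamini-Hochberg over all tested probes. The code was tested on simulated data. Clone codes pair no arrays between groups.

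The 35 genes and all lists were chosen with earlier results of these data known. Named with all array values were 1 or more genes per role (Polr1a, not in the fixed list, was added after its values were seen) and, in each comparison, up to 3 called genes in each direction with the largest differences and groups that did not overlap; other genes are given by counts and ranges. Alternatives were the deposited values, median scaling, no detection filter, the mean of a gene's probes, the export format (4 fibroblast arrays were written with 1 decimal) as a block, leaving those arrays out, fitting only the groups compared, and leaving out each array. The number of arrays limits the precision.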

Additional observations from a re-analysis of the deposited data

How the results depend on the processing

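No sign of the 83 gene and comparison pairs that were called reversed under any alternative; 21 were called under every alternative and 23 in every fit that left out 1 array. Counts of called genes changed by over 1.5 times as follows, and the cause was not tested. Median scaling gave 2 for A-iPSC minus Y-iPSC (5 as reported), 3 for Y-iPSC minus ESC (8), 1 for Y-iPSC minus Y-SC (2) and 13 for ESC minus fibroblasts (22). No detection filter gave 3, 5 and 1 for the first 3 of these, and 5 for A-iPSC minus A-SC (3). The mean of a gene's probes gave 1 for Y-iPSC minus Y-SC and 6 for A-iPSC minus A-SC, and the deposited values gave 6 for the latter. The export format as a block gave 0 and 5 for this pair, and so did leaving out the 4 fibroblast arrays of the 1-decimal format, which also gave 2 for A-iPSC-ZSCAN10 minus ESC (0). Fitting only the groups compared gave 0 for A-iPSC minus Y-iPSC, 17 for A-iPSC-ZSCAN10 minus A-iPSC (11), 2 for Y-iPSC minus ESC, 6 for A-iPSC-ZSCAN10 minus ESC and 0 for Y-iPSC minus Y-SC. Leaving out 1 array gave 0 to 5 for A-iPSC minus Y-iPSC, 3 to 9 for A-iPSC-ZSCAN10 minus A-iPSC, 0 to 4 for Y-iPSC minus ESC, 11 to 17 for A-iPSC minus ESC (19), 0 to 2 for Y-iPSC minus Y-SC, 1 to 6 for A-iPSC minus A-SC, 2 to 15 for A-iPSC-ZSCAN10 minus A-SC (13) and 10 to 22 for ESC minus fibroblasts; a lone array is then assumed to vary like the other groups. Median scaling moved the median of all genes to 0.11 for A-iPSC-ZSCAN10 minus Y-iPSC, 0.12 for A-iPSC-ZSCAN10 minus ESC, -0.12 for Y-iPSC minus Y-SC and -0.12 for ESC minus fibroblasts. Signal over background limits Nolc1 and Rrs1, the dimmest genes tested. No paired analysis was possible because the groups compared share fewer than 2 replicate numbers.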
